A study of Mus musculus with 14 samples.

Results

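The E11 c-kit+ IAHC cells are 89 single cells of intra-aortic haematopoietic clusters (IAHCs) that were sorted from embryonic day 11 mouse aortas on c-kit, without CD31 as a marker of the sort. They were chosen here by the phenotype of their sample, c-kit+, and by their column names, and they make up 89 of the 290 E11 IAHC cells and 89 of the 575 cells of the E11 table. The other 201 E11 IAHC cells, of the phenotype c-kit+ CD31+ by their label, are the population they are compared with. The paper describes a sort that recorded the CD31 stain of each c-kit+ cell and kept cells with and without it. It counts fewer c-kit+ CD31+ cells than the 201 here. The labels give no CD31 reading of single cells, so whether all 201 were CD31+ could not be checked. A sort on c-kit alone takes cells with and without CD31 on their surface, so the 89 cells are not a CD31-negative population. The study followed how haematopoietic stem cells arise from the aortic endothelium by profiling single cells and whole clusters of the embryo. Transcripts of each cell were counted with molecular identifiers (CEL-Seq).

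Both IAHC samples came from C57BL/6 WT embryos at E11 (>40sp, more than 40 somite pairs), from pooled Aorta-Gonad-Mesonephros (AGM) regions that were dissociated with collagenase. 4 other groups of the same table serve as points of reference. The E11 pre-HSCs (C57BL/6, WT, AGM, c-kit+ Cdh5+ CD45 index) comprise 62 type I and 55 type II cells, the type being carried by the column names. The E11 YS cells (C57BL/6, WT, Yolk-Sac, c-kit+) number 46. The 46 E11 EHT cells (endothelial-to-haematopoietic transition; Cdh5+ Gfi1+ Gfi1b- c-kit+) and the 46 E11 HE cells (haemogenic endothelium; Cdh5+ Gfi1+ Gfi1b- c-kit-) came from AGMs of ICR embryos of the genotype Gfi+/tomato/ Gfi1b+/GFP, so strain and reporter alleles differ from those of the IAHC cells. Each group is 1 sample, cells of a sample are not replicates, and no test between groups was possible.

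Intra-aortic clusters bud into the lumen of the aorta from haemogenic endothelial cells, which lose endothelial genes as they turn on blood genes, and the first haematopoietic stem cells and their precursors lie within them. c-kit is the receptor for stem cell factor and is carried by cluster cells, while CD31, the product of Pecam1, is an adhesion molecule of endothelial cells that cluster cells keep. Gpr56 encodes an adhesion G protein-coupled receptor of blood stem and progenitor cells.

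The authors had deposited only IAHC cells in which Gpr56 was found, so its presence in all 89 cells is no finding. Every cell had been brought to 5000 transcripts. The c-kit+ cells held a median of 2191 genes per cell (lowest 1772, highest 2507) and the c-kit+ CD31+ cells a median of 2346 (2068 to 2656). Summed over cells, this makes 444995 transcripts of 11729 genes in the c-kit+ cells and 1004979 transcripts of 12916 genes in the c-kit+ CD31+ cells.

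The column names divide the 89 cells into 5 sets, named here A (15 cells), B (16), C (25), D (7) and E (26). The 201 cells fall into 4 sets, named F (50), G (59), H (49) and I (43). The labels do not say whether a set is a sort, a plate, a library or a pool. The names of A and B carry the number 3, those of C, D and E the number 4, and those of F to I the number 2. No number occurs in both samples, so the sort on CD31 and whatever these numbers stand for cannot be told apart, and this holds for every difference given here. The labels do not say which sets were stained through the aorta and which after dissociation. The 89 cells used 58 cell barcode numbers, of which 26 occurred in more than 1 of the 5 sets and 58 also in the c-kit+ CD31+ sets, as for plates filled with the same barcodes. No 2 of the 290 cells had identical columns, and the highest correlation between 2 cells over all genes, on log2 of transcripts plus 1, was 0.671.

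Values are mean transcripts per cell of 5000. Ratios are the c-kit+ cells over the c-kit+ CD31+ cells, from summed transcripts, with an exact 95% interval from the counts. These intervals, and those of shares of cells, cover counting error only and not the variation between embryos, pools or sorts. A gene was compared where its mean was at least 0.5 transcripts per cell in either sample, and it is called higher or lower where the ratio was at least 2-fold.

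The 5 genes named as markers of these cells came first. Gpr56 stood at 4.53, 4.31, 4.04, 3.71 and 3.85 transcripts per cell in sets A to E, against 5.58, 5.02, 4.73 and 5.86 in sets F to I (log2 ratio -0.37, interval -0.54 to -0.19). All 5 c-kit+ sets lay below all 4 c-kit+ CD31+ sets, by less than 2-fold. Kit, the gene for c-kit itself, stood at 0.667, 1.06, 1, 1 and 0.885 in A to E and at 0.700, 0.627, 0.571 and 0.698 in F to I (log2 ratio 0.51, interval 0.09 to 0.92). The groups overlapped through set A, and the other c-kit+ sets were higher. Kit was seen in 57 of the 89 c-kit+ cells (64.0%, exact interval 53.2% to 74.0%) and in 93 of the 201 c-kit+ CD31+ cells (46.3%, 39.2% to 53.4%). In HE cells, which were sorted as c-kit-, 2 of 46 cells (4.35%) had a Kit transcript, at an equal depth.

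Rac2 encodes a small GTPase of blood cells. Its level was 1.6, 1.13, 2.08, 2.43 and 1.27 transcripts per cell in sets A to E and 0.960, 0.729, 1.122 and 0.930 in sets F to I (log2 ratio 0.81, interval 0.48 to 1.13). Sets A to E were all above F to I, with set D highest and set B level with set H to within 0.01 transcripts per cell. It was found in 52 of the 89 c-kit+ cells (58.4%, exact interval 47.5% to 68.8%) and in 102 of the 201 c-kit+ CD31+ cells (50.8%, 43.6% to 57.9%). No transcript of it was detected in the 46 HE cells. At this depth a count of 0 was taken to allow up to 6.52% of them. That limit stands for 3 counts over the population and is not an exact interval. Rac2 did not reach 2-fold. It did with only the cells that pass the purification rule described with the other markers, while with those cells the log2 ratios were 0.04 for Kit, 0.18 for Sox11 and 0.99 for Col3a1, all under 2-fold. The rule itself removes cells with more than 2 transcripts of Sox11 or Col3a1, which lowers these 2 values in part by its own terms.

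Sox11 and Col3a1 are markers of the tissue around the aorta, a transcription factor and a collagen chain. Sox11 was at 0.333, 0.375, 0.320, 0.286 and 0.692 transcripts per cell in A to E and at 0.1, 0.407, 0.163 and 0.163 in F to I. The groups overlapped through set G. Its mean stayed under the floor of 0.5 in both samples (0.438 and 0.219, log2 ratio 1.00, interval 0.34 to 1.66), so it was not compared. Col3a1 was at 0.400, 0.375, 0.240, 1.71 and 0.615 in A to E and at 0.160, 0.220, 0.184 and 0.0930 in F to I (log2 ratio 1.61, interval 0.94 to 2.30). All c-kit+ sets were above all c-kit+ CD31+ sets, the 7 cells of set D by most. Col3a1 was seen in 28 of the 89 c-kit+ cells (31.5%, exact interval 22.0% to 42.2%) and in 29 of the 201 c-kit+ CD31+ cells (14.4%, 9.88% to 20.1%), and 21 of the 28 c-kit+ cells held 1 transcript. No YS cell had a Col3a1 transcript, and among EHT cells 1 of 46 did.

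**Figure D1:**
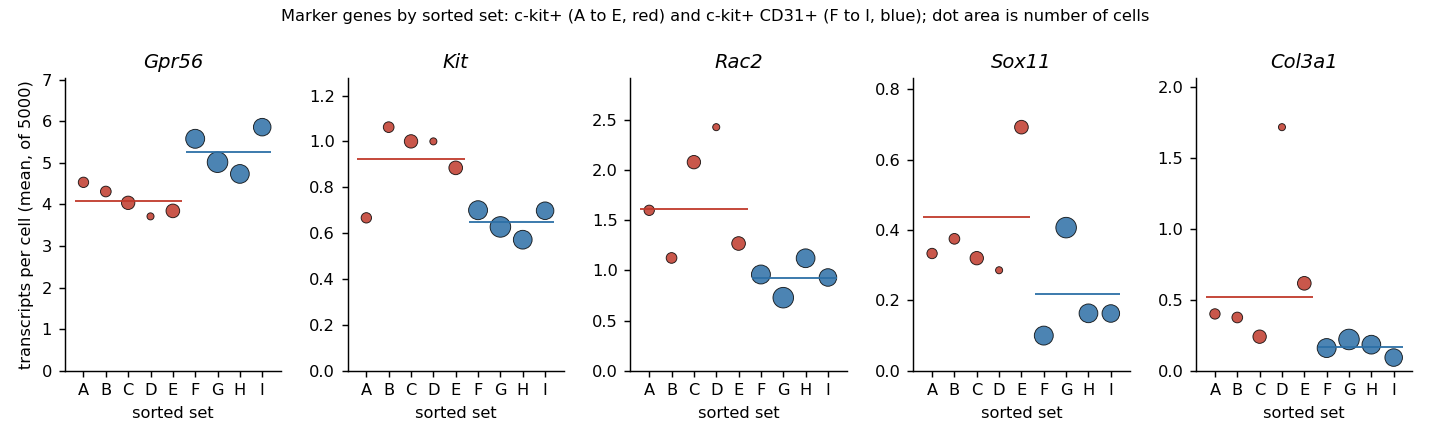
Mean transcripts per cell (of 5000) of the 5 marker genes in each set. The c-kit+ sets A to E are in red and the c-kit+ CD31+ sets F to I in blue. Dot area is the number of cells and lines are the means over all cells of a sample (4.09 and 5.27 for Gpr56). The sets do not overlap for Gpr56, Rac2 and Col3a1, and they do for Kit and Sox11.

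The label of cluster cells was checked against lists of marker genes. 22 of 23 regulators of stem and progenitor cells in the table had transcripts in the c-kit+ cells. The exception was Erg, which had 2 transcripts in the c-kit+ CD31+ cells. This count cannot test the label, because the list holds Gpr56, on which cells were selected. Of all 19415 symbols 11729 had a transcript in the c-kit+ cells, as had 18 of 22 mesenchyme genes. Runx1, the factor that the formation of clusters requires, was at 0.753 and 0.766 transcripts per cell, Gata2 at 0.596 and 0.532, Myb at 1.06 and 1.199, and Gfi1 at 0.584 and 0.662, in the c-kit+ and the c-kit+ CD31+ cells in turn. Their intervals all spanned a ratio of 1. Pecam1, the gene for CD31, was at 0.467, 1.38, 0.760, 1 and 0.692 in sets A to E and at 1.06, 0.966, 0.878 and 0.837 in F to I (log2 ratio -0.20, interval -0.61 to 0.20). The groups overlapped. It was seen in 41 of the 89 c-kit+ cells (46.1%, exact interval 35.4% to 57.0%) and in 110 of the 201 c-kit+ CD31+ cells (54.7%, 47.6% to 61.7%). The intervals of these shares overlapped, so the counts showed neither a difference between the samples nor an equal frequency.

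Genes that the paper took as markers of non-IAHC cells were looked at next. By a purification rule applied here, of more than 1 Gpr56 transcript and at most 2 transcripts of each of 11 genes (Sox11, Col3a1 and Cdkn1c, with Csf1r, Fcgr3, Pdgfrb, Cxcl12, Gata3, Epha7, Crabp1 and Ptprd), 47 of the 89 c-kit+ cells passed (52.8%, exact interval 41.9% to 63.5%), and 140 of the 201 c-kit+ CD31+ cells (69.7%, 62.8% to 75.9%). In sets A to E 5 of 15, 8 of 16, 14 of 25, 3 of 7 and 17 of 26 cells passed by this rule, whose gene list may differ from the one the authors used, and in sets F to I 40 of 50, 40 of 59, 26 of 49 and 34 of 43. The shares of the 2 groups overlapped. In the c-kit+ cells, 10 had only 1 Gpr56 transcript and 36 had more than 2 transcripts of a gene of the rule. That gene was Cdkn1c, a cell cycle inhibitor, in 31 of the cells, and, in part of the same cells, Col3a1 in 5, Sox11 in 3 and Fcgr3 in 1, and none of the other 7 genes passed 2 transcripts in any of the 89 cells. For genes that the authors' own filter used, this may have been set by their selection and is then no finding. Cdkn1c did not differ between the samples (2.34 and 2.48 transcripts per cell, log2 ratio -0.08, interval -0.32 to 0.15). Summed with Gata3, it was at 2.18 in type I and 1.145 in type II pre-HSCs, 0.152 in YS cells, 2.46 in EHT cells and 2.13 in HE cells. Most cells over the limit thus exceeded it on a gene also found in pre-HSCs and endothelium, and the share that passed is not a measure of purity.

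The cells on each side of the rule differed in their endothelial genes. The 41 endothelial genes summed to a mean of 13.6 transcripts in the 47 c-kit+ cells that passed and of 29.3 in the 42 that did not. In the c-kit+ CD31+ cells these means were 28.0 and 31.9. The c-kit+ cells that failed thus lay at the level of both kinds of c-kit+ CD31+ cell, and those that passed lay below. Ratios with only the cells that pass therefore rest on c-kit+ cells lower in endothelial genes. The haematopoietic list went the other way in both samples, 21.4 and 16.6 in c-kit+ cells and 21.1 and 18.1 in c-kit+ CD31+ cells that passed and did not. These are means over all cells. By set, the endothelial mean was higher in cells that passed in sets G and H, and the haematopoietic mean was lower in cells that passed in sets C and I.

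2049 genes were compared. The median log2 ratio was -0.05, and 5% of genes lay below -0.78 and 5% above 0.61. 31 genes were at least 2-fold higher in the c-kit+ cells (1.51% of those compared) and 56 at least 2-fold lower (2.73%). Counts by set gave 63 genes with all 5 c-kit+ sets above all 4 c-kit+ CD31+ sets (3.07%) and 124 with all below (6.05%). 15 of the 31 higher genes and 32 of the 56 lower ones were among these. The sets of the c-kit+ sample also differed from each other. Between its sets A and B (31 cells) and C, D and E (58 cells), 2120 genes were compared, of which 88 were at least 2-fold higher (4.15%) and 99 at least 2-fold lower (4.67%) in A and B, with fewer cells and so a larger counting error than between the samples.

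Of the 31 higher genes, 20 stayed past 2-fold when cells were thinned, when sets were weighted equally, when only cells passing the purification rule were used, and when each set was left out in turn. 26 of the 56 lower genes did so. 18 of the higher and 27 of the lower genes were past 2-fold both with A and B alone and with C, D and E alone as the c-kit+ sample.

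**Figure D2:**
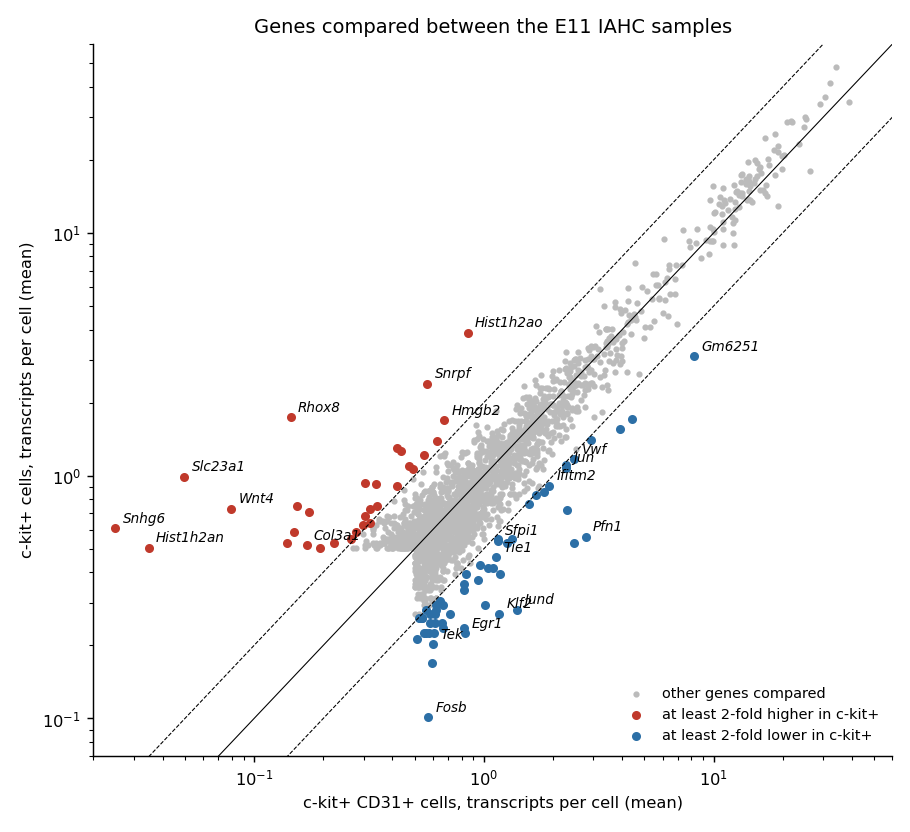
Mean transcripts per cell in the c-kit+ CD31+ cells (x axis) and the c-kit+ cells (y axis), both on log scales, for the 2049 genes compared. The solid line is equality and the dashed lines are 2-fold. The 31 higher genes (red) reach a 24.4-fold ratio at Snhg6, and the 56 lower ones (blue) include Fosb, Jund and Klf2.

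The lower genes held 6 immediate early genes. These encode transcription factors that cells switch on within minutes of a stimulus, the handling of tissue among them, and the list joins to them genes of heat shock. 10 of its 23 genes could be compared. 6 were lower, 0 higher, and 4 past neither, with a median log2 ratio of -1.24 against -0.05 over all genes compared and a share of lower genes of 2.73% over all.

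Fosb, a partner of Jun proteins, stood at 0.133, 0.313, 0, 0 and 0.0769 transcripts per cell in sets A to E and at 0.600, 0.847, 0.265 and 0.512 in F to I (log2 ratio -2.50, interval -3.67 to -1.53). Only sets B and H overlapped. The log2 ratio of Fosb was -3.38 without set B and -2.02 without set C. Jund, a Jun protein, was at 0.467, 0.188, 0.480, 0 and 0.115 in A to E and at 2.46, 1.66, 0.612 and 0.698 in F to I (log2 ratio -2.32, interval -2.97 to -1.72). The groups did not overlap, and sets F and G were higher than H and I. It was seen in 21 of the 89 c-kit+ cells (23.6%, exact interval 15.2% to 33.8%) and in 123 of the 201 c-kit+ CD31+ cells (61.2%, 54.1% to 68.0%).

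Egr1, a zinc finger factor on chromosome 18, was at 0.533, 0.313, 0.0800, 0.143 and 0.154 in A to E and at 0.620, 1.08, 0.653 and 0.907 in F to I (log2 ratio -1.88, interval -2.63 to -1.20). Sets A and B were highest among the c-kit+ sets and all lay below F to I. Klf2, which blood flow induces in endothelium, was at 0.867, 0.438, 0, 0.286 and 0.0769 in A to E and at 1.42, 1.14, 0.837 and 1.30 in F to I (log2 ratio -2.12, interval -2.79 to -1.51). Sets C and E were at or near 0, set D lay between them and set B, and set A reached the level of set H. The log2 ratio of Klf2 was -2.98 without set A and -1.64 without set C. With only the cells that pass the purification rule it was -4.73. Transcripts of Klf2 were in 8 of the 89 c-kit+ cells (8.99%, exact interval 3.96% to 16.95%) and in 104 of the 201 c-kit+ CD31+ cells (51.7%, 44.6% to 58.8%).

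Klf6 was at 0.2, 0.250, 0.280, 0.286 and 0.231 in sets A to E and at 0.700, 0.864, 0.429 and 0.581 in F to I (log2 ratio -1.41, interval -2.13 to -0.75). The groups did not overlap. Jun was at 2.2, 1.63, 0.240, 0.429 and 1.08 in A to E and at 2.40, 2.69, 1.63 and 2.28 in F to I (log2 ratio -1.08, interval -1.41 to -0.76). Set A lay within the c-kit+ CD31+ range of Jun, set B level with set H at its lower end, and sets C, D and E below it. Without set C the log2 ratio of Jun was -0.69 and without set G -0.96, under 2-fold. With sets A and B alone, Jun (-0.26), Klf2 (-0.86) and Egr1 (-0.98) were under 2-fold. Fosb (-1.34), Jund (-2.12) and Klf6 (-1.54) were past it. With sets C, D and E alone the log2 ratios were -1.83, -4.08, -2.77, -4.05, -2.43 and -1.34 in the same order.

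The other 4 members compared were not past 2-fold, and 3 of them had a negative log2 ratio. Fos was at 0.472 and 0.587 transcripts per cell (log2 ratio -0.32, interval -0.86 to 0.20), and Ier2 at 0.933 and 1.49 (log2 ratio -0.68, interval -1.05 to -0.32). The heat shock genes Dnaja1 (log2 ratio 0.28, interval 0.04 to 0.52) and Dnajb1 (log2 ratio -0.03, interval -0.51 to 0.43) were nearest to equal, and Hspa1a and Hspa1b lay under the floor, with 14 of the 42 Hspa1a transcripts in 1 cell. Summed, the list stood at 14, 11.8, 5.88, 12.6 and 6.73 transcripts per cell in sets A to E and at 16.1, 15.7, 10.8 and 14.1 in F to I (log2 ratio -0.65, interval -0.77 to -0.54). Sets A, B and D overlapped the c-kit+ CD31+ range and sets C and E were lowest. With sets A and B alone the log2 ratio of the list was -0.15, and with sets C, D and E alone -1.01. With only the cells that pass the purification rule it was -0.94. The labels give the same collagenase step for both samples and do not tie other handling to single sets. The part of handling in the ratio was not tested.

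Jund and Egr1 were also low in the pre-HSCs and YS cells. Jund was at 0.306 in type I pre-HSCs, 0.527 in type II pre-HSCs, 0.217 in YS cells, 1.41 in EHT cells and 1.522 in HE cells. Egr1 was at 0.290 in type I pre-HSCs, 0.382 in type II pre-HSCs, 0.217 in YS cells, 0.609 in EHT cells and 0.609 in HE cells. The whole list summed to 11.9 in type I pre-HSCs, 9.82 in type II pre-HSCs, 5.96 in YS cells, 14.8 in EHT cells and 22.4 in HE cells. The type I mean was raised by a cell with 197 transcripts of the list. Medians per cell were 8 in type I and 7 in type II pre-HSCs, 4.5 in YS, 12.5 in EHT and 18.5 in HE cells. They were 6 in c-kit+ and 12 in c-kit+ CD31+ cells.

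The promoters of 5 of the 6 lower genes were in the RefSeq table used (GRCm38.p6, the assembly of mm10), each from 250 bases before to 50 after the start of the gene; Egr1 had none. They were searched on both strands for TGACATCA, which Jun and ATF dimers bind, TGACGTCA (the cAMP response element), TGACTCA (the AP-1 site), CCWWWWWWGG (the CArG box) and YTAWWWWTAR (the MEF2 site), where W is A or T, Y is C or T and R is A or G. 3 of the 5 promoters held a match, and those are shown, with the matches in capitals.
Jun (chr4:95052173-95052472, minus strand): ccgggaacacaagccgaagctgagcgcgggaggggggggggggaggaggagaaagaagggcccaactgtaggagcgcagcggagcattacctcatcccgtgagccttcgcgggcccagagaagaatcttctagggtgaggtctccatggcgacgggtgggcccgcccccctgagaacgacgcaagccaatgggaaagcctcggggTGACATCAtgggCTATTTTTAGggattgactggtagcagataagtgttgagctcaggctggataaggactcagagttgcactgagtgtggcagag
Klf2 (chr8:72318812-72319111, plus strand): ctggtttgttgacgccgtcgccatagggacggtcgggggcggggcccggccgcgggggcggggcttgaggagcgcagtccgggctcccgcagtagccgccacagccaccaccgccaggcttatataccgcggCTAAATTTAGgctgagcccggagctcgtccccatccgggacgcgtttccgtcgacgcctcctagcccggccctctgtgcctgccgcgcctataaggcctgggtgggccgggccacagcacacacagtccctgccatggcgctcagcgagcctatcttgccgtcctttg
Klf6 (chr13:5861239-5861538, plus strand): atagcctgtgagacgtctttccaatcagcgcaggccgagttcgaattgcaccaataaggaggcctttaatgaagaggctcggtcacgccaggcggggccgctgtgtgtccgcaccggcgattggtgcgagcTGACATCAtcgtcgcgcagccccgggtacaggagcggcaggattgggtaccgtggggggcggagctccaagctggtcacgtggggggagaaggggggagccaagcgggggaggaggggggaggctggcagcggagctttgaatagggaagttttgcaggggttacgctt
TGACATCA began 45 bases before the start of Jun and 119 bases before that of Klf6. A MEF2 site began 33 bases before the start of Jun, without overlap with the first match, and 118 bases before that of Klf2. Of 32851 promoters of the same length, 3.62% held TGACATCA, 3.19% a MEF2 site, 1.79% TGACGTCA, 5.20% TGACTCA and 1.63% a CArG box. The Fosb and Jund windows held none of the 5 motifs. A match is a description of the sequence and nothing more.

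Endothelial genes were lower as a list without many single genes past 2-fold. 22 of the 41 genes could be compared, and 20 of them had a negative log2 ratio. 4 were lower (2.73% over all genes), 0 higher, and the median was -0.49 against -0.05 over all genes compared. Summed, the list stood at 22.5, 25.9, 19.9, 10.9 and 20.8 transcripts per cell in sets A to E and at 31.0, 27, 28.3 and 31.2 in F to I (log2 ratio -0.48, interval -0.55 to -0.40). All c-kit+ sets lay below all c-kit+ CD31+ sets, set D by most. For the cells that pass the purification rule the log2 ratio was -1.05, with sets A and B alone it was -0.27, and with 1 set left out at a time it lay between -0.55 and -0.42.

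Vwf, the von Willebrand factor of endothelium and platelets, was at 0.667, 1.63, 1.2, 0.429 and 1.308 in A to E and at 2.40, 2.63, 2.51 and 2.33 in F to I (log2 ratio -1.08, interval -1.40 to -0.78). Tek encodes a receptor for angiopoietins and Tie1 a related receptor. Tie1 was at 0.533, 0.375, 0.480, 0 and 0.577 in A to E and at 1.28, 1.153, 0.878 and 1.209 in F to I (log2 ratio -1.29, interval -1.81 to -0.81), and Tek at 0.2, 0.125, 0.2, 0.143 and 0.269 and 0.820, 0.356, 0.694 and 0.581 (log2 ratio -1.57, interval -2.38 to -0.85). For each of these genes the c-kit+ sets lay below all c-kit+ CD31+ sets. Vwf was just short of 2-fold without set A (log2 ratio -0.96) and with thinned cells (-0.98). Gja4, a connexin of arteries, was at 0.2, 0.438, 0.320, 0 and 0.192 in A to E and at 0.320, 0.678, 0.388 and 0.698 in F to I (log2 ratio -1.02, interval -1.73 to -0.35). These groups overlapped. Leaving out set A, D, E, G or I brought Gja4 under 2-fold (log2 ratios -0.95, -0.90, -0.87, -0.82 and -0.88). Thinned cells (-0.97) and sets A and B alone (-0.70) did so too. With only the cells that pass the purification rule the log2 ratio of Gja4 was -2.72.

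Other endothelial genes were not past 2-fold. Cdh5, the cadherin of endothelial junctions, was at 1.45 and 2.244 transcripts per cell in c-kit+ and c-kit+ CD31+ cells (log2 ratio -0.63, interval -0.92 to -0.35). Col18a1, the most abundant of the list, was at 2.202 and 2.53 (log2 ratio -0.20, interval -0.45 to 0.04). Procr, the endothelial protein C receptor, was at 1.07 and 0.945 (log2 ratio 0.18, interval -0.20 to 0.54), and the intervals of Col18a1 and Procr spanned 1. Fgd5 and Arap3, both regulators of small GTPases in endothelium outside the list, were lower (log2 ratios -1.18 and -1.28) and were picked after their values were seen. Fgd5 was under 2-fold with thinned cells (-0.71).

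The endothelial list placed the c-kit+ cells among the other populations. It summed to 21 transcripts per cell in c-kit+ cells, 29.2 in c-kit+ CD31+ cells, 32.7 in type I pre-HSCs, 19.4 in type II pre-HSCs and 7.85 in YS cells. EHT cells had 57.8 and HE cells 156. The c-kit+ cells thus lay next to the type II and the c-kit+ CD31+ cells next to the type I pre-HSCs.

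Single cells spread widely around these means. The endothelial sum per cell had quartiles of 6, 15 and 28 in the c-kit+ cells, with a range of 1 to 97. In c-kit+ CD31+ cells the quartiles were 16, 26 and 37, with a range of 3 to 109. The sum of 30 haematopoietic genes had quartiles of 12, 19 and 24 in c-kit+ cells and of 15, 20 and 25 in c-kit+ CD31+ cells.

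The endothelial sum was above the haematopoietic one in 39 of 89 c-kit+ cells (43.8%, exact interval 33.3% to 54.7%) and in 122 of 201 c-kit+ CD31+ cells (60.7%, 53.6% to 67.5%). By set, it was in 7 of 15, 10 of 16, 10 of 25, 1 of 7 and 11 of 26 cells of A to E, and in 32 of 50, 34 of 59, 30 of 49 and 26 of 43 cells of F to I. Set B lay within the c-kit+ CD31+ range (62.5% against 57.6% to 64.0%) and the other c-kit+ sets below it. The share was 87.1% in type I and 36.4% in type II pre-HSCs. Across the 89 cells the sums had a Spearman correlation of -0.28 and across the 201 cells of -0.17. The correlation was -0.31 in type I and -0.10 in type II pre-HSCs. It was 0.12 in YS cells, -0.82 in the 46 EHT cells and -0.32 in HE cells. Every cell has the same total, which ties the sums of large lists to each other.

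**Figure D3:**
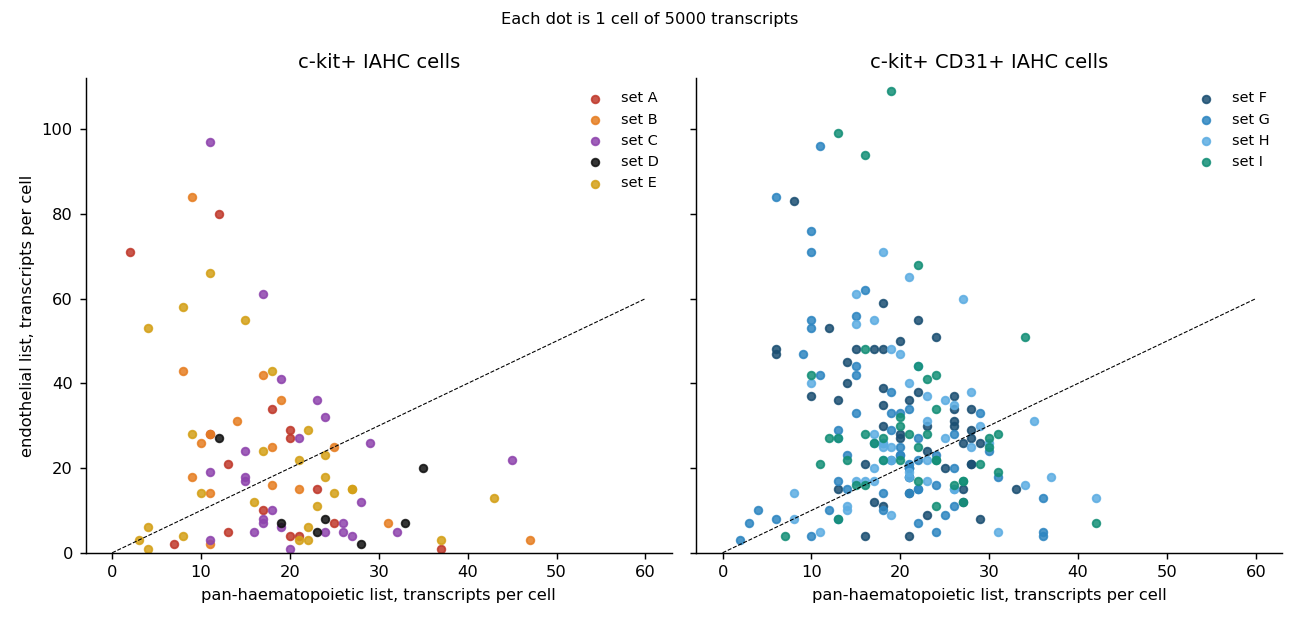
Summed transcripts per cell of 30 haematopoietic genes (x axis) and 41 endothelial genes (y axis) in each c-kit+ cell (left) and c-kit+ CD31+ cell (right). Cells are coloured by set. The dashed line marks equal sums. 39 of 89 cells lie above it on the left and 122 of 201 on the right, and cells with few endothelial transcripts come from all 5 c-kit+ sets.

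Haematopoietic genes summed to 17.3, 17.4, 21.0, 24.9 and 17.9 transcripts per cell in sets A to E and to 20.6, 18.2, 21.2 and 21.2 in F to I (log2 ratio -0.08, interval -0.16 to 0.01). The groups overlapped, with set D highest. 13 of 30 genes were compared. 1 was lower and 0 higher (2.73% and 1.51% over all genes), and the median log2 ratio was -0.26. The lower gene was Sfpi1, which encodes the factor PU.1, at 0.400, 0.5, 0.760, 0.286 and 0.5 in A to E and 1.7, 0.983, 1.122 and 0.767 in F to I (log2 ratio -1.09, interval -1.57 to -0.64). Its groups just missed each other, at 0.76 in set C and 0.767 in set I. The log2 ratio was -0.84 without set F, -0.94 with thinned cells and -0.97 with sets C, D and E alone, all under 2-fold. Laptm5, the most abundant gene of the list, was at 2.37 and 2.846 transcripts per cell, and Ptprc, the gene for CD45, under the floor at 0.258 and 0.189, in 18 of 89 and 29 of 201 cells.

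Interferon-induced genes and genes of antigen presentation held 3 lower genes among 6 compared and 0 higher (2.73% and 1.51% over all genes), with a median log2 ratio of -0.78 against -0.05 over all genes compared. Ifitm2, a membrane protein that restricts viruses, was at 1.13, 1.312, 0.680, 1.14 and 0.692 in A to E and at 2.2, 1.32, 2.04 and 2.26 in F to I (log2 ratio -1.08, interval -1.44 to -0.73). Sets B and G came within 0.01 transcripts per cell of each other and the groups did not overlap. Ifitm3 was at 0.764 and 1.57 (log2 ratio -1.04, interval -1.44 to -0.66) and the interferon receptor gene Ifngr1 at 0.270 and 0.612 (log2 ratio -1.18, interval -1.88 to -0.54). Without set E these log2 ratios were -0.95, -0.85 and -0.95, and without set C that of Ifitm2 was -0.95. Their neighbour Ifitm1, the most abundant of the list, was at 2.06 and 2.204 (log2 ratio -0.10, interval -0.36 to 0.15), and B2m at 1.13 and 1.09 (log2 ratio 0.06, interval -0.30 to 0.41), both with intervals that spanned 1. The list summed to 7.13, 6.63, 7.84, 7.86 and 5.73 transcripts per cell in A to E and 9.36, 8.66, 9.69 and 10.4 in F to I. All c-kit+ sets were below all c-kit+ CD31+ sets.

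Further genes were among the 15 with the lowest ratios. Pfn1 encodes profilin, which binds actin. It was at 0.2, 0.438, 0.640, 1.286 and 0.577 in sets A to E and at 5.36, 1.86, 1.82 and 2.09 in F to I (log2 ratio -2.30, interval -2.75 to -1.88). The groups did not overlap, and set F was far above the others. Pfn1 was at 2.48 in type I pre-HSCs, 2.15 in type II pre-HSCs, 3.11 in YS cells, 12.02 in EHT cells and 8.43 in HE cells, so the c-kit+ cells lay below every other population of the table used here. Trp53, the gene for p53, was at 0.333, 0.0625, 0.120, 0.429 and 0.346 in A to E and at 1.2, 0.847, 0.612 and 0.535 in F to I (log2 ratio -1.79, interval -2.52 to -1.13), without overlap. Mfsd10, a membrane transporter, was at 0.225 and 0.607 (log2 ratio -1.43, interval -2.19 to -0.74).

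6 of those 15 are pseudogenes or predicted genes by their names: Rpl34-ps1, Gm19757, Gm10548, Gm12191, Gm11517 and Gm5506. Rpl34-ps1, a processed pseudogene of a ribosomal protein gene, was at 0.0667, 0.125, 0.0800, 1.86 and 1.115 in sets A to E and at 4.64, 1.475, 1.98 and 1.91 in F to I (log2 ratio -2.23, interval -2.69 to -1.80). Gm6251, the most abundant of the 56 lower genes and picked for that after its values were seen, was at 2.33, 0.875, 1.64, 6.71 and 5.35 in A to E and at 12.2, 6.02, 7.31 and 7.72 in F to I (log2 ratio -1.41, interval -1.60 to -1.22). In both, sets D and E stood near or within the c-kit+ CD31+ range and sets A, B and C far below it. Reads of such near-identical copies can be placed at the parent gene or at the copy, so these values are uncertain. Annotated pseudogenes made up 7 of the 87 genes past 2-fold, 1 higher and 6 lower (10.7% of the lower genes), and 0.830% of all genes compared. Gm12191 was under 2-fold without set F (log2 ratio -0.86), and Rpl34-ps1 was at -3.12 without set E.

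Among the higher genes, Snhg6 and Slc23a1 were near 0 in all c-kit+ CD31+ sets. Snhg6, a non-coding host gene of small nucleolar RNAs, was at 0.400, 0.563, 0.320, 1 and 0.923 in sets A to E and at 0.0400, 0.0169, 0 and 0.0465 in F to I (log2 ratio 4.61, interval 3.30 to 6.29). It was seen in 38 of the 89 c-kit+ cells (42.7%, exact interval 32.3% to 53.6%) and in 5 of the 201 c-kit+ CD31+ cells (2.49%, 0.813% to 5.71%). Slc23a1, a vitamin C transporter, was at 0.400, 0.813, 0.0800, 2.14 and 2 in A to E and at 0.0200, 0.102, 0.0204 and 0.0465 in F to I (log2 ratio 4.31, interval 3.37 to 5.42). Set C lay within the c-kit+ CD31+ range of Slc23a1 and the other c-kit+ sets above it. The log2 ratio of Slc23a1 was 3.52 without set E and 5.13 without set G. Snhg6 was at 0.403 in type I pre-HSCs, 0.327 in type II pre-HSCs, 0.0652 in YS cells, 0.478 in EHT cells and 0.565 in HE cells, and Slc23a1 at 1.69 in type I pre-HSCs, 2.35 in type II pre-HSCs, 0.174 in YS cells, 0.174 in EHT cells and 0.217 in HE cells. Both pre-HSC types thus had at least the Slc23a1 level of the c-kit+ cells.

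Snrpf, a core protein of the spliceosome, was at 2.07, 2.63, 1.68, 2.86 and 3 in sets A to E and at 0.740, 0.542, 0.510 and 0.465 in F to I (log2 ratio 2.08, interval 1.74 to 2.42), with no overlap. It was at 2.10 in type I pre-HSCs, 2.236 in type II pre-HSCs, 1.11 in YS cells, 2.54 in EHT cells and 1.5 in HE cells. Casc4 (log2 ratio 1.62), Loxl2, a lysyl oxidase that cross-links collagen (1.97), and A230046K03Rik (1.54) were also higher. Casc4 and A230046K03Rik did not overlap between the groups, and Loxl2 did through sets A and G. Their means were 0.933, 0.584 and 1.27 in c-kit+ cells and 0.303, 0.149 and 0.438 in c-kit+ CD31+ cells. In EHT cells they were 2.196, 1.07 and 3.17. The c-kit+ CD31+ cells lay below the c-kit+ cells, and for Casc4, Loxl2 and A230046K03Rik the c-kit+ cells in turn lay below EHT cells. Without set G the log2 ratio was 3.05 for Loxl2 and 2.14 for A230046K03Rik. The cause was not tested.

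Wnt4, a secreted signal of the Wnt family, had a higher mean in the c-kit+ cells than in the other populations used. It was at 0.267, 0.938, 1.28, 0.286 and 0.462 in sets A to E and at 0, 0.102, 0.143 and 0.0698 in F to I (log2 ratio 3.20, interval 2.39 to 4.09). The groups did not overlap and sets B and C were highest, while sets A and D were level with type I pre-HSCs. Wnt4 was seen in 37 of the 89 c-kit+ cells (41.6%, exact interval 31.2% to 52.5%) and in 15 of the 201 c-kit+ CD31+ cells (7.46%, 4.24% to 12.01%), with 1 transcript in 21 of the 37 c-kit+ cells and 6 at most. It was at 0.258 in type I pre-HSCs, 0.182 in type II pre-HSCs, 0.0217 in YS cells, 0.0870 in EHT cells and 0.196 in HE cells. Against type I pre-HSCs its log2 ratio was 1.5 (interval 0.69 to 2.39), against type II 2.01 and against YS cells 5.07. These ratios share the c-kit+ cells.

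Hist1h2ao, Hist1h2an and Hist3h2a were among the 15 genes with the highest ratios. They belong to no fixed list, and H2afx, H2afv, H2afj, H2afz and H2afy were not past 2-fold. Hist1h2ao was at 10.6, 4.63, 3.28, 0.571 and 1 in sets A to E and at 0.180, 1, 1.41 and 0.791 in F to I (log2 ratio 2.19, interval 1.92 to 2.46). Sets A, B and C were high, and sets D and E lay within the c-kit+ CD31+ range. Without set A, Hist1h2ao was at a log2 ratio of 1.56. Hist1h2ao was at 3.14 with sets A and B alone and at 1.18 with sets C, D and E alone. It was seen in 57 of the 89 c-kit+ cells (64.0%, exact interval 53.2% to 74.0%) and in 79 of the 201 c-kit+ CD31+ cells (39.3%, 32.5% to 46.4%), and 10 c-kit+ cells held at least 10 transcripts, 29 at most. Hist1h2an, a near-identical copy on the same chromosome, was at 0.506 and 0.0348 (log2 ratio 3.86, interval 2.70 to 5.25), and Hist3h2a, on chromosome 11, at 2.40, 1.5, 1.1, 1 and 0.808 in A to E and at 0.340, 0.288, 0.531 and 0.558 in F to I (log2 ratio 1.64), without overlap. Reads of these copies may be exchanged, and messages of such histones mostly lack the poly(A) tail from which the method primes, so the values are uncertain.

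Rhox8, a homeobox gene on the X chromosome, rested on 4 cells. It was at 0, 0.125, 1.72, 0 and 4.23 in sets A to E and at 0.220, 0.169, 0.0612 and 0.116 in F to I (log2 ratio 3.59, interval 3.01 to 4.22). Only sets C and E were high. 14 of the 89 cells had a transcript. 4 of them held 44, 33, 33 and 29 transcripts, 139 of the 155 in all (89.7%), and the next cell held 4. 1 of these cells was of set C and 3 of set E, with 1 to 3 Gpr56 transcripts each, and Kit was seen in 1 of them. Without the 4 cells, a choice made after seeing the data, the log2 ratio was 0.38, and with sets A and B alone it was -1.16.

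Other higher genes among the 15 with the highest ratios were Trim12c (0.753 and 0.154 transcripts per cell, log2 ratio 2.29, interval 1.65 to 2.95), a TRIM protein of innate immunity, Kif3a, a motor of cilia, and Samsn1, an adaptor of lymphocytes (log2 ratio 1.92). Kif3a was at 1.13, 2, 0.360, 0.286 and 0.115 in sets A to E and at 0.160, 0.203, 0.102 and 0.233 in F to I (log2 ratio 2.02, interval 1.40 to 2.66). Sets A and B were high, set E was within the c-kit+ CD31+ range, and with sets C, D and E alone the log2 ratio was 0.47. Samsn1 was at 0.0667, 0.750, 0.480, 1.57 and 0.423 in A to E and at 0.0600, 0.237, 0.0816 and 0.163 in F to I. Set A alone overlapped the c-kit+ CD31+ sets.

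3 higher genes were members of fixed lists. Besides Col3a1 these were Hmgb2, a DNA-bending protein of dividing cells, and Cxcr2, a chemokine receptor. Hmgb2 was at 1.2, 1.13, 1.6, 3.14 and 2.04 in sets A to E and at 0.820, 0.746, 0.714 and 0.349 in F to I (log2 ratio 1.34, interval 0.99 to 1.68), and Cxcr2 at 1, 0.625, 0.760, 0.857 and 1.19 and 0.5, 0.542, 0.204 and 0.395 (2.18-fold, log2 interval 0.66 to 1.58). Neither overlapped. Cxcr2 was at 0.984 in type I pre-HSCs, 1.71 in type II pre-HSCs, 1.41 in YS cells, 1.89 in EHT cells and 1.152 in HE cells, so the c-kit+ CD31+ cells were lowest in it. Its log2 ratio was 0.93 without set E, 0.90 without set H and 0.90 with thinned cells.

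**Figure D4:**
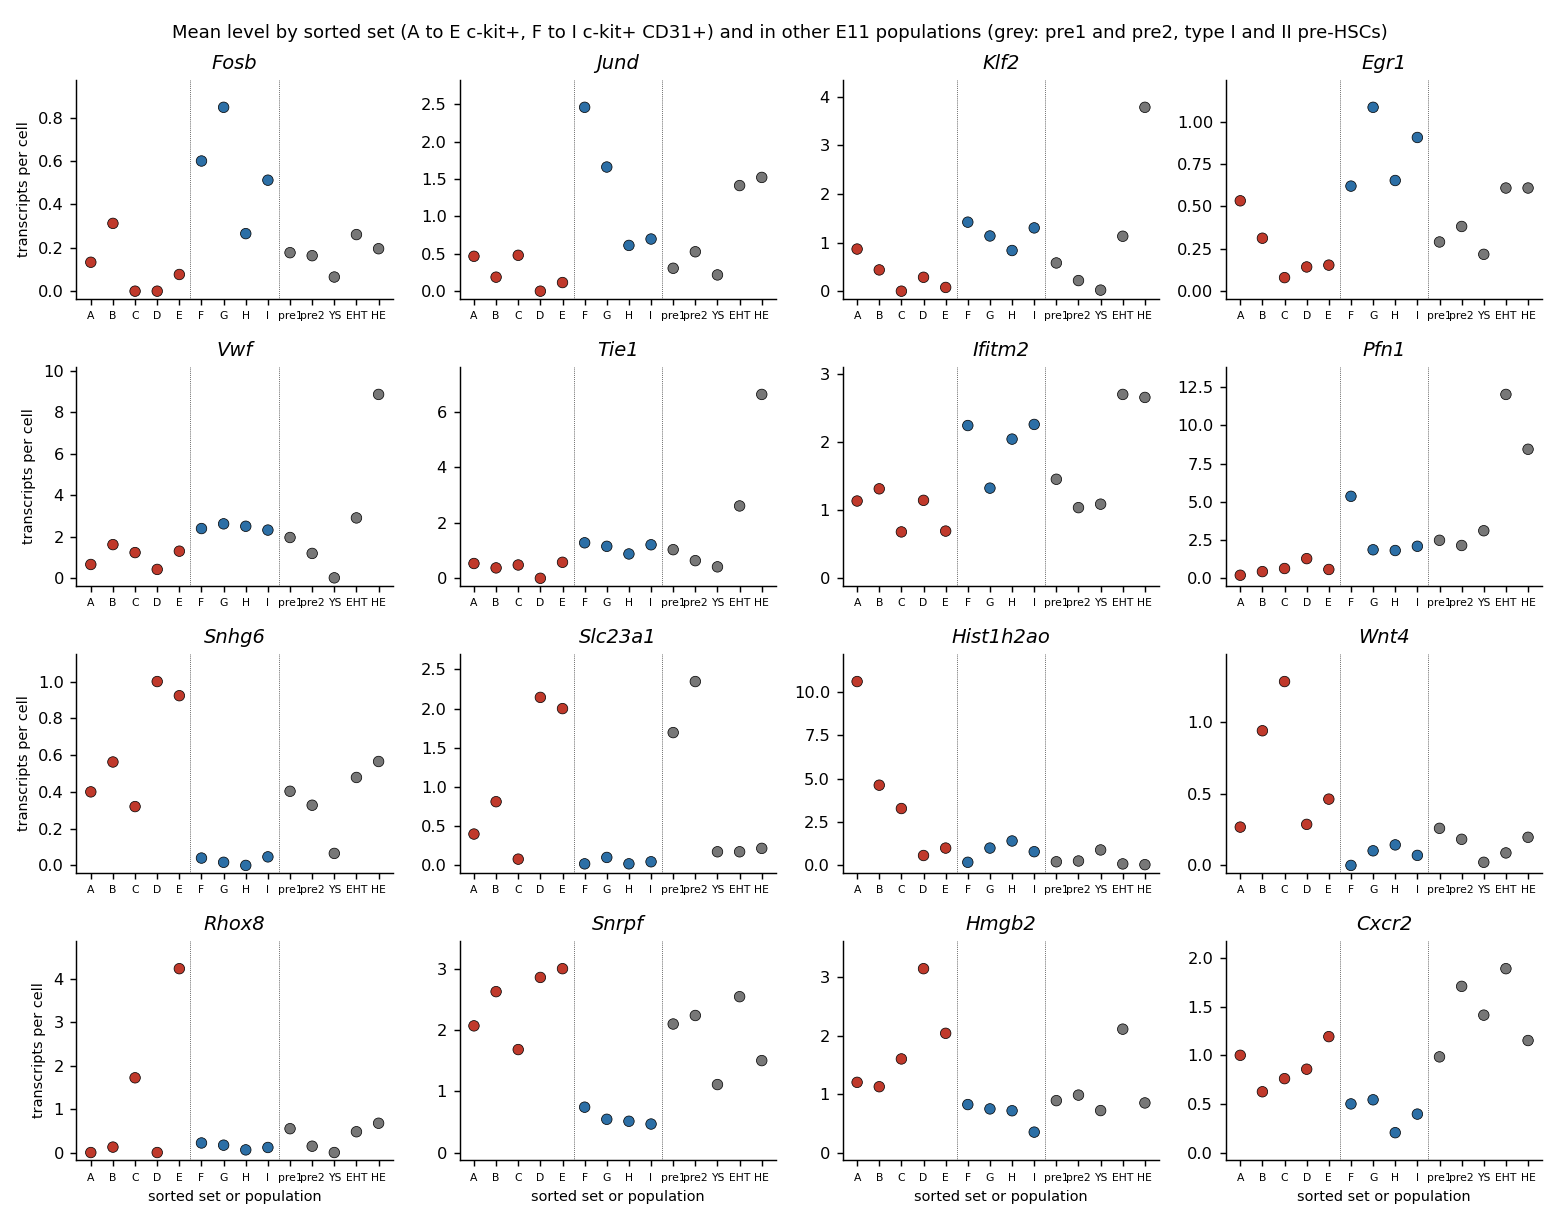
Mean transcripts per cell (of 5000) of 16 genes in each set and in type I and II pre-HSCs, YS, EHT and HE cells (grey). Sets A to E (red) are c-kit+ and sets F to I (blue) are c-kit+ CD31+. The y axes start at 0 and differ between genes. Jund, Snrpf and Wnt4 separate the red from the blue sets, while Rhox8 is high in sets C and E and Hist1h2ao in sets A, B and C.

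Several lists held no or 1 gene past 2-fold. Genes of S phase summed to 25.5 transcripts per cell in c-kit+ and 25.8 in c-kit+ CD31+ cells (log2 ratio -0.02, interval -0.09 to 0.05), and none of the 19 compared was past 2-fold. Genes of G2 and mitosis summed to 25.3 and 22.6 (log2 ratio 0.16, interval 0.09 to 0.23), and of the 19 compared only Hmgb2 was past 2-fold (1.51% higher over all genes). Glycolysis genes summed to 29.7 and 31.8, with none of 10 past 2-fold. The regulators of stem and progenitor cells summed to 19.3 and 22.3, with none of 17 past 2-fold and a median log2 ratio of -0.18. All c-kit+ sets lay below all c-kit+ CD31+ sets (log2 ratio -0.21, interval -0.29 to -0.13). The most abundant gene of this list was Gpr56, on which cells were selected, at 4.09 and 5.27. The sum without Gpr56 was not tested. Hlf (log2 ratio -0.86, interval -1.45 to -0.30) and Meis1 (log2 ratio -0.72, interval -1.29 to -0.18) were the lowest of these regulators. The 7 genes of the fetal programme summed to 8.60 and 10.5, none of 4 compared past 2-fold. Among these, Hmga2 was at 3.33, 3.69, 5.56, 3.14 and 5.12 in A to E and at 6.44, 6.36, 6.78 and 5.72 in F to I (log2 ratio -0.49, interval -0.65 to -0.32), with the c-kit+ sets all below.

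Imprinted genes summed to 38, 46, 34.7, 24.1 and 35.0 transcripts per cell in sets A to E and to 52.8, 49.4, 50.3 and 52.4 in F to I (log2 ratio -0.48, interval -0.54 to -0.43), all c-kit+ sets below all c-kit+ CD31+ sets. None of the 5 compared was past 2-fold. Most of this was H19, a non-coding RNA, at 20, 22.3, 18.96, 9.71 and 15.5 in A to E and 28.2, 23.4, 26.2 and 27.5 in F to I (log2 ratio -0.54, interval -0.62 to -0.46), and its neighbour Igf2, a growth factor whose groups overlapped through set B, at 11.4, 18.3, 11.3, 9.71 and 12.7 and 20.2, 18.4, 17.6 and 20 (log2 ratio -0.56, interval -0.66 to -0.46). H19 was at 32.6 in type I pre-HSCs, 22.3 in type II pre-HSCs, 3.65 in YS cells, 32.4 in EHT cells and 63.5 in HE cells. H19 and the endothelial list thus had the same order among the pre-HSCs, YS, EHT and HE cells, apart from near-equal type I pre-HSCs and EHT cells.

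The 10 most abundant genes of the c-kit+ cells were 8 genes of ribosomal proteins, led by Rpsa at 48.3 transcripts per cell (33.98 in c-kit+ CD31+ cells), and Ptma (36.4 and 30.5) and Eef1a1 (34.8 and 38.9), for prothymosin and an elongation factor. Ribosomal protein genes summed to 1317, 1261, 1331, 962 and 1189 transcripts per cell in sets A to E and to 1066, 1091, 1098 and 1123 in F to I (log2 ratio 0.19, interval 0.18 to 0.20). Set D was lowest of all 9 sets and the other c-kit+ sets were above all c-kit+ CD31+ sets. Of 79 genes compared 1 was lower, Rpl34 (log2 ratio -1.11, interval -1.81 to -0.47), and 0 higher (2.73% and 1.51% over all genes), with a median log2 ratio of 0.19. Rpl34 was under 2-fold with thinned cells (-0.98), with equal weights for sets (-0.82) and without set C (-0.97) or H (-0.98). With a fixed total per cell, a higher sum here leaves fewer transcripts for all other genes.

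Genes of other cell types were mostly scarce in these cells, which had passed the authors' filter on non-IAHC genes. The macrophage list summed to 0.854 and 1.05 transcripts per cell, 9 of 17 genes had a transcript in c-kit+ cells, Tyrobp was the most abundant at 0.337, and Ctss, C1qc, Aif1, Fcgr1, Lgals3, Cx3cr1, Cd14 and Ms4a7 were at 0. Its 1 gene compared was lower, as was 1 of the 6 compared of the myeloid list (2.73% over all genes). Both are Lyz2, lysozyme, at 0.133, 0.0625, 0.2, 0.714 and 0.269 in sets A to E and 0.680, 0.373, 0.714 and 0.581 in F to I (log2 ratio -1.36, interval -2.12 to -0.67), where set D overlapped. The myeloid list summed to 7.02 and 8.68, and Elane, Ctsg, Cebpa, S100a8, S100a9, Fcnb and Clec12a were at 0. Igfbp4, its most abundant gene, was at 2.62 and 4.75 (log2 ratio -0.86, interval -1.07 to -0.65). Mpo, myeloperoxidase, was at 0.600, 0.375, 0.880, 3.43 and 0.538 in A to E and 0.400, 0.508, 0.571 and 0.535 in F to I (log2 ratio 0.75, interval 0.30 to 1.19), and 1 cell held 15 of its 75 transcripts. Set D stood apart.

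Erythroid genes summed to 4.07 and 3.398 transcripts per cell in c-kit+ and c-kit+ CD31+ cells, with Car2 the most abundant at 0.787. Globin genes summed to 0.400, 2, 0.2, 0 and 0.0769 transcripts per cell in sets A to E and to 0.280, 0.203, 0.122 and 0.0930 in F to I (log2 ratio 1.5, interval 0.83 to 2.17). Only set B was high. There, 2 cells held 16 and 14 of the 37 transcripts of Hbb-y, an embryonic globin gene, and without set B the log2 ratio of the list was -0.01. Globin sums were 3.56 in type I pre-HSCs, 2.49 in type II and 4.72 in YS cells, and 76 of the 89 c-kit+ cells had none.

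Platelet genes summed to 2.28 and 2.53 transcripts per cell, 15 of 20 had a transcript, Itgb3 was the most abundant at 0.337 and 0.652 (log2 ratio -0.95, interval -1.57 to -0.37), and Gp1ba, Gp5, Gp6, Tubb1 and F2rl2 were at 0. Lymphoid genes summed to 1.40 and 1.16, Notch1 was the most abundant, and Rag1, Dntt, Cd3e, Cd79a, Ebf1 and Cd7 were at 0. The mast cell list summed to 0.0787 and 0.0796 with Fcer1a, Mcpt8, Gzmb and Cma1 at 0. These types carry c-kit or CD31 in part, and none of their lists was past 2-fold. The counts allow up to 3 transcripts over a sample where none was seen.

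Mesenchyme genes summed to 2.47, 2.50, 2.08, 3.29 and 3.04 transcripts per cell in sets A to E and to 0.920, 2.83, 1.51 and 1.372 in F to I (log2 ratio 0.59, interval 0.35 to 0.84). Set G lay within the c-kit+ range and sets F, H and I below it. 18 of 22 genes had a transcript in c-kit+ cells, Col3a1 was the most abundant, and Meox1, Dcn, Tcf21 and Gata4 were at 0. Without set G the log2 ratio of this list was 1.04. Sums were 0.839 in type I and 1 in type II pre-HSCs. The quartiles per c-kit+ cell were 1, 2 and 3, with 17 cells at 0 and 26 transcripts at most. Smooth muscle genes summed to 3.07, 1.06, 0.600, 0.429 and 0.808 in A to E and 1.74, 0.864, 1.96 and 0.814 in F to I, with set A highest and the groups overlapping, and Myh11 and Cnn1 were at 0 in c-kit+ cells. The part of such RNA in the Col3a1 and Sox11 values was not tested.

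c-kit also marks primordial germ cells and melanoblasts, which lie near the aorta at this stage. Germ cell genes summed to 0.0787 transcripts per c-kit+ cell, and 9 of the 12, Dppa3, Dazl, Dnd1, Nanog, Tfap2c, Dppa5a, Prdm14, Sycp3 and Mael, were at 0. Neural crest and melanoblast genes summed to 0.146 per c-kit+ cell and 0.294 per c-kit+ CD31+ cell, with Pax3, Erbb3 and Tyr at 0 in c-kit+ cells. Epithelial genes summed to 0.539 and 0.632, nearly all of it Krt18, and 6 of 10 were at 0. Apart from Krt18, at 0.506 transcripts per c-kit+ cell, the listed markers of these types were thus at or near 0 in the 89 cells.

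Signalling lists were sparse. Notch genes summed to 2.69 and 3.09 transcripts per cell, with 2 genes compared and none past 2-fold. BMP and TGF-beta genes summed to 3.35 and 3.91, with none of 2 past it (log2 ratio -0.22, interval -0.42 to -0.03). Integrins and adhesion genes summed to 8.94 and 10.4, with none of 8 past it, and all c-kit+ sets below all c-kit+ CD31+ sets (log2 ratio -0.22, interval -0.34 to -0.10). Cytokine receptor genes summed to 4.48 and 4.22, with 1 higher (Cxcr2) and 1 lower (Ifngr1) of 4 compared, beside 1.51% and 2.73% over all genes. Y-linked genes were at 0.404 and 0.328 and Xist at 0.146 and 0.0647 transcripts per cell, so transcripts of male and of female cells were found in both samples. Most genes of these lists were under the floor and were not compared one by one.

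**Figure D5:**
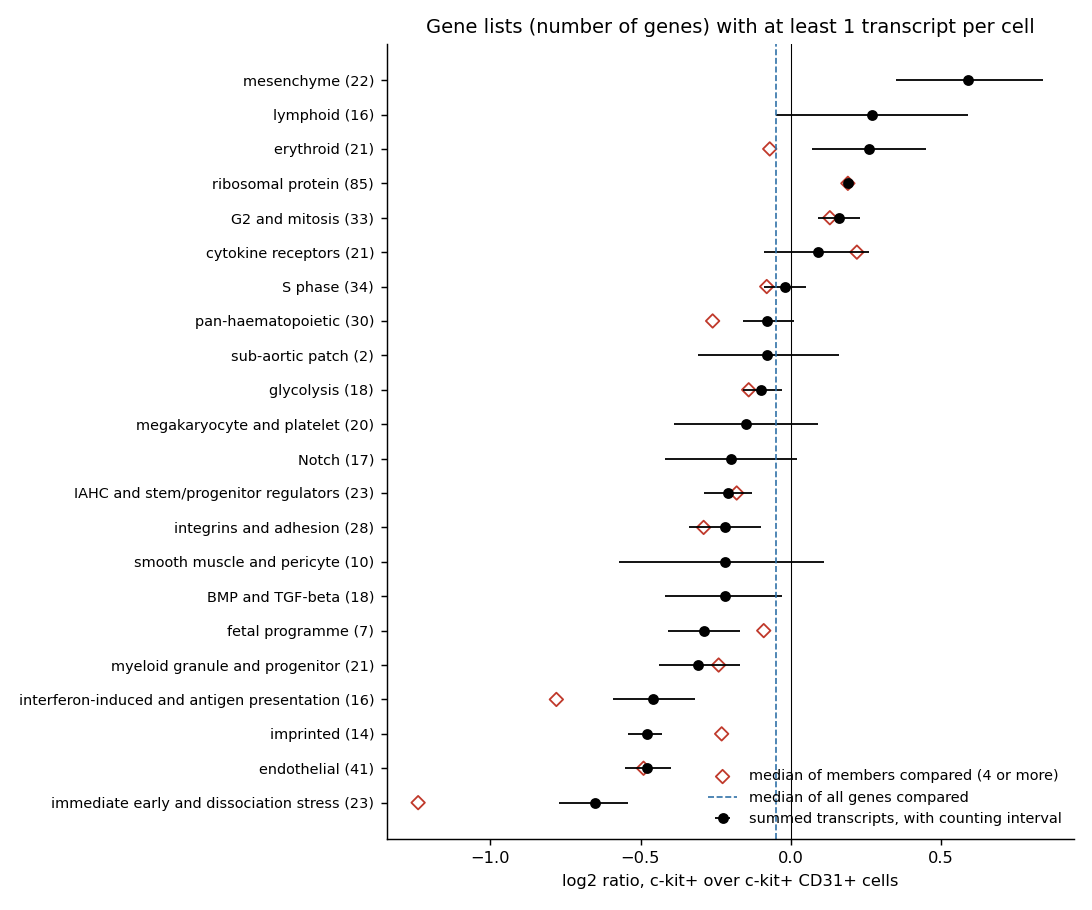
log2 ratio of c-kit+ over c-kit+ CD31+ cells for each gene list that summed to at least 1 transcript per c-kit+ cell. Black points are ratios of summed transcripts with 95% counting intervals, red diamonds are medians of the members compared where there were at least 4, and the dashed line is the median of all 2049 genes (-0.05). The immediate early, endothelial and interferon lists lie lowest by their median.

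Compared with the other c-kit+ populations of the table, the c-kit+ cells differed from the pre-HSCs in about as many genes as from the c-kit+ CD31+ cells. Against type I pre-HSCs, 42 of 2045 genes were at least 2-fold higher (2.05%) and 51 at least 2-fold lower (2.49%). Against type II pre-HSCs, 48 of 2054 were higher (2.34%) and 48 lower (2.34%). Against YS cells, 145 of 2120 were higher (6.84%) and 109 lower (5.14%). Median log2 ratios were 0.00, -0.01 and -0.11 in turn. The comparisons share the c-kit+ cells, and populations of fewer cells pass 2-fold by counting error more often.

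The genes behind these counts differed by population. Rac2 was higher in c-kit+ cells than in type I pre-HSCs (log2 ratio 1.79), where its mean was 0.468, and not past 2-fold against type II pre-HSCs (0.08) or YS cells (-0.74). The embryonic globin gene Hbb-y was lower than in all 3, at -2.33, -2.01 and -2.72 against type I, type II and YS cells. Vwf (5.75) and Procr (5.62) were the genes most above YS cells, each seen in 1 of 46 YS cells. Hist1h2ao was higher than in type I (4.21), type II (3.93) and YS cells (2.12), and Pfn1 lower (-2.14, -1.93 and -2.47). Each pair of values shares the 89 cells.

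The limits of these values follow from the design. 1 sample stands for each population, AGMs were pooled, and the embryos behind a set are not given, so no difference could be set against the variation between embryos. The sort on CD31 coincides with the number in the names of the sets. The 89 cells are those left after the authors' selection on Gpr56 and their filter on non-IAHC genes, and cells without Gpr56 are not in the table. At 5000 transcripts per cell most genes fall under 0.5 transcripts per cell. Set D has 7 cells, and its means rest on few transcripts. Values of pseudogenes and histone genes depend on where reads of near-identical copies were placed.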

How the data were processed

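The deposited values of the E11 table are estimated counts from the authors: transcripts by molecular identifier, sampled down to 5000 per cell, with 0.1 added. The submitters' processing notes name BWA 0.6.2-r126 and mm10. Here 0.1 was subtracted, which left whole numbers to within 7.1e-15. Of 19424 gene rows, those with a repeated symbol were reduced to the one with most transcripts (19415 symbols). The 30 columns of non-HE cells were not used. Cells were sorted to wells, and no doublets were called.

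Transcripts were summed over cells and divided by their number. Genes with a mean of at least 0.5 in either population were compared, a population with no transcript being set to 3 counts over the population, and no pseudocount was used. Intervals are exact at 95% (Poisson ratio by the conditional binomial, Clopper-Pearson for shares). The genes named are the 15 highest and 15 lowest ratios, the 10 most abundant genes, the 5 markers and members of 31 gene lists (1, mitochondrially encoded genes, had none in the table). Genes named outside this rule were picked after their values were seen, among them those singled out in the comparison of sets and reference populations. Gene types came from GENCODE vM21, promoters from RefSeq. The members and lists were chosen with earlier results of these data known.

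Alternatives were floors of 0.2 and 1, a pseudocount of 0.1, thinning to 3000 transcripts, equal weights for sets, cells passing the purification rule, leaving out each set, and a fold of 1.5. Python 3.11.15, numpy 2.4.6, scipy 1.17.1, pandas 2.3.3 and matplotlib 3.10.9 were used.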

Additional observations from a re-analysis of the deposited data

How the results depend on the processing

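The numbers of genes at least 2-fold higher and lower in the c-kit+ cells, 31 and 56, depend on the floor and the fold. A floor of 0.2 gave 155 and 208, a floor of 1 gave 10 and 25, and a fold of 1.5 gave 117 and 194, since more or fewer genes can pass. A pseudocount of 0.1 gave 35 lower genes, and cells thinned to 3000 transcripts gave 15 and 28, as fewer genes reach the floor. Equal weights for sets gave 47 higher genes, and the cells passing the purification rule 112 lower ones. The cause was not tested. Leaving out 1 set at a time gave 29 to 43 higher and 48 to 77 lower genes. Chosen after seeing the data, sets A and B alone gave 55 and 110, and sets C, D and E alone 56 higher genes.

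Of 1835 values of 101 named genes and 30 lists under these alternatives, 1660 lay within the interval of the reported value, and 3 of those that were at least 2-fold changed direction. The other 172 lay outside the interval. Changes of sign among values under 2-fold are not counted apart, and some occurred, such as the summed smooth muscle genes at 0.60 with sets A and B alone against -0.22. Rhox8 was at a log2 ratio of -1.16 with sets A and B alone, which hold none of the 4 cells high in it (2.31 to 3.87 when sets were left out). The summed globin genes were at -0.57 with sets C, D and E alone and between -0.01 and 1.93 when sets were left out, since 2 cells of set B carry most of them. No paired analysis was possible because the labels and column names do not say which cells of both samples came from the same embryos or pools. Depth limits the comparison to genes of at least 0.5 transcripts per cell.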

Other observations

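Within the c-kit+ sample, the sets whose names carry 3 and those whose names carry 4 differed in some genes. Fam124a was at 0.0645 transcripts per cell in sets A and B and at 0.621 in C, D and E (log2 ratio -3.27, interval -6.37 to -1.31). By set it was at 0.133, 0, 0.4, 0 and 1 in A to E, so sets C and E carried the difference and set D did not. The mean of Fam124a was 0.0149 in c-kit+ CD31+ cells. It was not compared with them because it lay under the floor of 0.5 in both samples. Fcer1g, a chain of Fc receptors, was at 0.0323 and 0.534 (-4.05, -9.40 to -1.47). Dusp1, a phosphatase among the immediate early genes, was at 0.806 and 0.138 (2.55). These genes were picked after their values were seen, and what the numbers stand for is not given.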
